A study of Mus musculus with 18 samples.

Results

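The genes described here are 42 heat shock and unfolded protein genes, chosen from a list of named members that had to reach at least 10 expected counts in 6 or more libraries. All 42 met that limit, among 17131 of the 55416 genes in the deposited tables that did, and each had at least 10 counts in all 18 libraries. The lowest value was 22 counts, for Trib3 in 1 library, and no member fell outside the limit. The members were kept apart as 29 genes of the endoplasmic reticulum (ER) and its stress signalling, and 13 genes of cytosolic and mitochondrial chaperones. The count limit itself used no measured difference between groups, but the members were chosen with earlier results of these data known.

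RNA came from whole ovaries of female wild-type Balb/c mice, with 6 libraries in each of 3 groups. Aged mice given Samul-tang, a herbal decoction, were 40 weeks old and received it by mouth at 2.5 g/kg. Aged control mice were also 40 weeks old and received distilled water, and young control mice were 8 weeks old and received distilled water. Dosing of the aged groups was 5 times a week for 4 weeks, and the labels state distilled water for the young mice without a schedule. All ovaries had been driven to ovulate: per the labels' protocols, mice received 5 IU of pregnant mare serum gonadotropin, 5 IU of human chorionic gonadotropin 48 hours later, and tissue was taken 16 hours after that. The values therefore describe hormone-stimulated ovaries, with no unstimulated group in the series. The aged mice of both groups were kept apart within shared cages, and which animals shared one is not given.

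When unfolded proteins build up in the ER, the membrane sensors IRE1 (Ern1), PERK (Eif2ak3) and ATF6 (Atf6) start the unfolded protein response. IRE1 splices the mRNA of the transcription factor Xbp1, PERK slows translation and favours synthesis of Atf4, and cleaved ATF6 enters the nucleus; their targets fold proteins in the ER or send them to the proteasome by ER-associated degradation. In the cytosol, heat shock factor 1 (Hsf1) drives the inducible HSP70 genes Hspa1a and Hspa1b and their partners. Luteinizing granulosa cells, theca cells and growing oocytes all make secreted or membrane proteins through the ER.

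Levels are in CPM, counts per 1000000 on library sizes scaled by the TMM method, and differences are log2 fold changes with the standard error (SE) of an edgeR quasi-likelihood fit of all 18 libraries. A gene was called at a Benjamini-Hochberg adjusted p under 0.05 over the 16959 genes tested, and all 42 members were among them. Library totals, in units of 1000000 counts, were 14.2 to 20.35 with Samul-tang, 11.61 to 13.43 in aged controls and 9.049 to 14.15 in young controls. Each group stands for 6 mice, and libraries of a group are taken as separate animals because the labels number them so. A pair of libraries stood apart: young control 3 and Samul-tang 6 had the lowest mean correlation with their own groups (0.977 and 0.976).

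The data in brief: with age, 6 of 29 ER genes rose (20.7%, where 5.25% of all genes tested rose) and none fell, 3 of them genes of ER-associated degradation. None of the 5 main ER chaperones and none of the 5 disulfide isomerases passed the test. A count of 0 in 5 genes is near the 11.3% of all genes called. The chaperone gene Hspa5 (log2 difference 0.28, 95% interval 0.05 to 0.50) was called in some alternatives. With age, 1 of 13 cytosolic and mitochondrial genes rose, Dnaja1 (7.69%, near the 5.25% of all genes tested that rose). Against aged controls, no member passed the test with Samul-tang, where 1.04% of all genes did, so that 0 of 42 is near that share. The plot of fold changes shows both comparisons side by side.

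**Figure D1:**
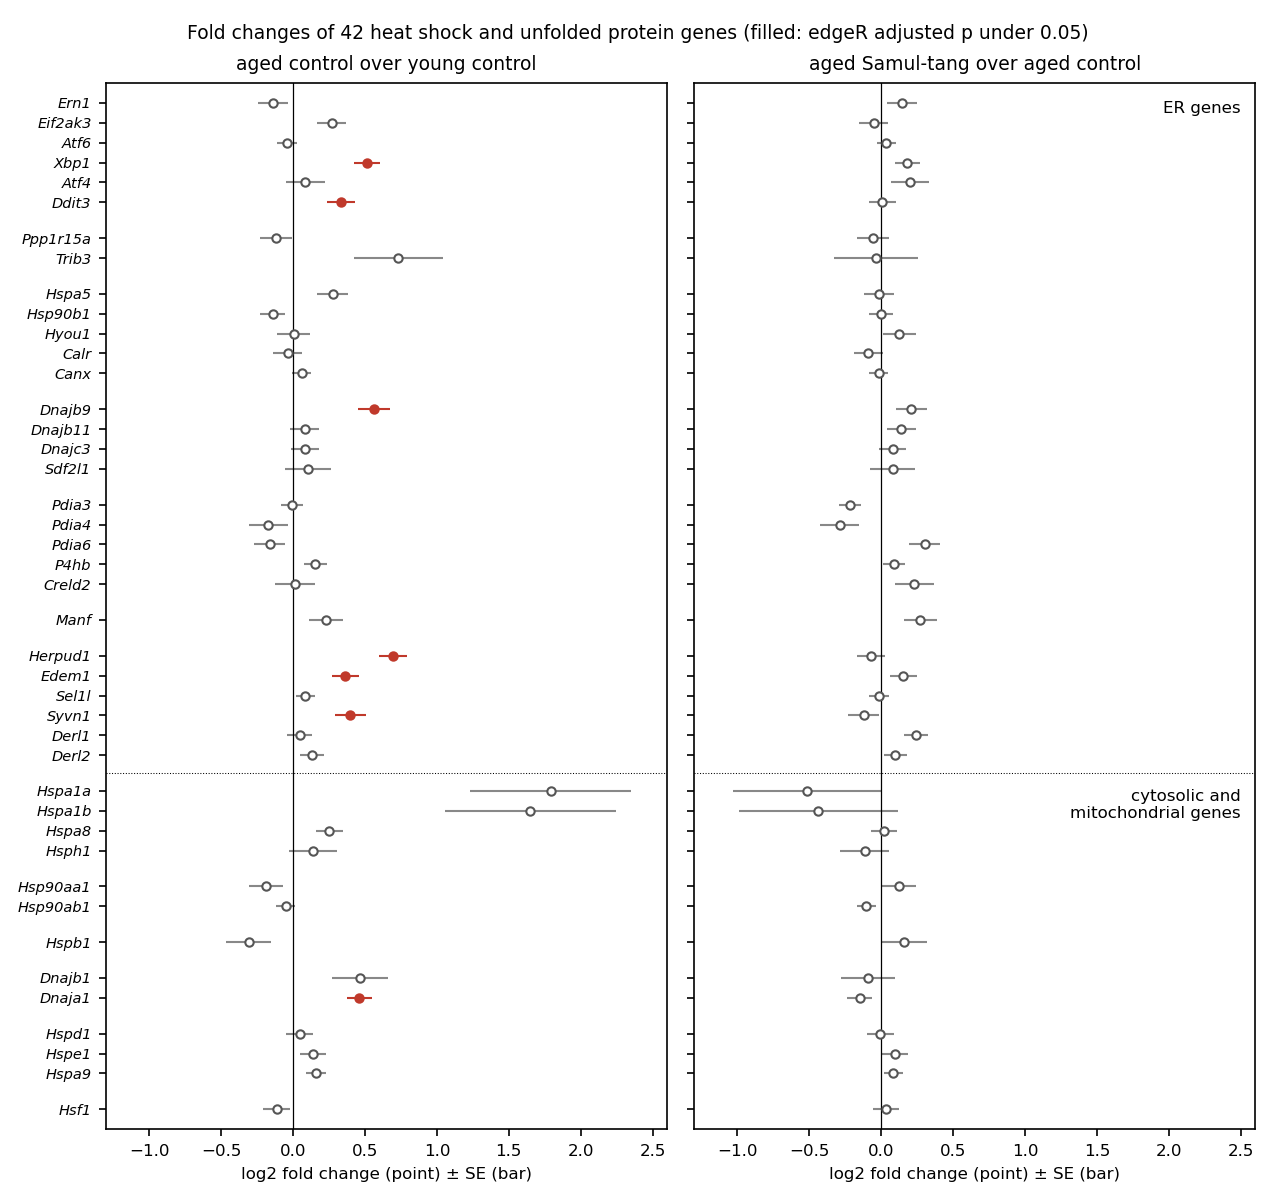
Log2 fold change (points) with SE (bars) of all 42 members, grouped by role, for aged control over young control (left) and aged Samul-tang over aged control (right), with filled points where the edgeR adjusted p was under 0.05. There are 7 filled points on the left, all to the right of 0, and none on the right; Hspa1a and Hspa1b have the widest bars in both panels.

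Promoter sequences show which members carry exact matches to classical binding elements of these pathways, so they precede the values. RefSeq windows of 300 bases (250 before to 50 after the transcription start, build GRCm38.p6) were found for 33 of the 42 members, 25 ER and 8 cytosolic or mitochondrial. The sources name GRCm39 as the build of the counts, so the windows share no coordinates with them. The ER stress response element, ERSE, was searched on both strands as CCAAT, any 9 bases, then CCACG. It is the known site of ATF6 with the factor NF-Y. It was present in 8 of 25 ER members and 0 of 8 cytosolic or mitochondrial members. Over all RefSeq promoter windows of the same length it was in 0.137% of 27025 genes and 0.119% of 32851 windows. The sites are shown in the direction of the element, with its fixed bases in capitals, so that the spacer between them can be compared.
Hspa5 chr2:34772025-34772043: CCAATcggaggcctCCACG
Hsp90b1 near site chr10:86705533-86705551: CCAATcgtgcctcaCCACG
Hsp90b1 far site chr10:86705638-86705656: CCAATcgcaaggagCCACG
Calr chr8:84847075-84847093: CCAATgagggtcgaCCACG
Canx chr11:50325800-50325818: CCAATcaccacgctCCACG
Dnajc3 chr14:118937827-118937845: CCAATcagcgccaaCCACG
Pdia6 chr12:17266491-17266509: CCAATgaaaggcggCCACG
Creld2 chr15:88819520-88819538: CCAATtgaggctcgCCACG
Syvn1 chr19:6046532-6046550: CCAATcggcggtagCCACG

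A shorter form, ERSE-II (ATTGG, any 1 base, then CCACG, on both strands), was present in Herpud1 and Dnajb11 and in 0.0365% of all windows. The heat shock element, searched on both strands as GAA, TTC and GAA with any 2 bases between each, was present in Hspd1, Hspe1 and Hsph1 and in 0.603% of all windows. Hspa1a, Hspa1b, Hspb1, Dnajb1 and Dnaja1 had a window without an exact match. Hspd1 and Hspe1 lie head to head on opposite strands, their windows share 285 of 300 bases, and a pair of overlapping heat shock elements lies in that shared stretch. The core of the XBP1 site (TGACGTGG) and the CHOP and ATF4 element (TGATGNAAT) were in none of the 33 members' windows and in 0.676% and 0.965% of all windows. A cyclic AMP element (TGACGTCA) was present in Ppp1r15a and in 1.79% of all windows. A match is a string of letters and not a measured binding site. No mismatch was allowed in the fixed bases, so a window without a match may still hold a variant of the element.

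The full windows of 4 members are shown as examples: Hspa5, Syvn1 and Herpud1 for the ER elements, and Hspd1 for the stretch it shares with Hspe1. Capitals mark the element found, on either strand. In Hspd1 they mark both overlapping heat shock elements.
Hspa5 chr2:34771840-34772139, plus strand: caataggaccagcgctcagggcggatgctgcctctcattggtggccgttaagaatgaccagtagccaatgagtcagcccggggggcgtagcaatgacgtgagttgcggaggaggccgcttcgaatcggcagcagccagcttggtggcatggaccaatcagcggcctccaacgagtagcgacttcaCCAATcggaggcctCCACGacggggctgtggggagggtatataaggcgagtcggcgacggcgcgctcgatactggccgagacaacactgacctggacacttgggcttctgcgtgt
Syvn1 chr19:6046326-6046625, plus strand: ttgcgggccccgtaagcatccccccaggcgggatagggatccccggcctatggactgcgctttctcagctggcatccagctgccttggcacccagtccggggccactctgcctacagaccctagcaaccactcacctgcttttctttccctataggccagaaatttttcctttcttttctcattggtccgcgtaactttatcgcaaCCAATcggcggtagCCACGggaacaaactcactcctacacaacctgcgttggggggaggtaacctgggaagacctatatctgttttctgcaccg
Herpud1 chr8:94386179-94386478, plus strand: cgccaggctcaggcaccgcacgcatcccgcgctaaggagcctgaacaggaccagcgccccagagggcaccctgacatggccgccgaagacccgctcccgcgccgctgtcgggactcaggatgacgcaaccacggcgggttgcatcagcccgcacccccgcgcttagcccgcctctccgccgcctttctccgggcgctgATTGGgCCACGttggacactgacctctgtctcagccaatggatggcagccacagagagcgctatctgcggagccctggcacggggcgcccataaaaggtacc
Hspd1 chr1:55087883-55088182, minus strand: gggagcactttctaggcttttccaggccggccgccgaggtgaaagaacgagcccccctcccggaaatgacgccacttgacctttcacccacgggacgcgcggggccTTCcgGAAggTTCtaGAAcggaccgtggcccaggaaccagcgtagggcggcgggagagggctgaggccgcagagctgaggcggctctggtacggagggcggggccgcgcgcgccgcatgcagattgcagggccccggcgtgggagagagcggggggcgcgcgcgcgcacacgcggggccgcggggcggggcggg

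The age comparison asks which of these genes differ between older and younger ovaries: 11.3% of all genes tested were called between aged and young controls, 890 higher (5.25%) and 1022 lower (6.03%). The share of higher calls, 46.5%, was not stable to scaling. It was 67.9% (1665 higher, 788 lower) once a trend on gene length was removed from each library, and 37.1% (501 higher, 851 lower) with limma on the deposited TPM values. Of the ER members, 6 of 29 (20.7%) were called, all higher, 7 lay above young controls with no overlap, as did 3.21% of all genes, and 0 lay below, as did 4.17%. Under those 2 alternatives 8 and 3 ER members were called, all higher. The median difference of the 29 was 0.08 on the log2 scale, beside 0.01 over all genes tested, and 21 of 29 were positive. Without the 2 libraries that stood apart, 8 ER members were higher, Eif2ak3 and Hspa5 being added, and Hsp90b1 was lower.

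Among the sensors and transcription factors, 2 of 6 rose with age. Xbp1 had a lowest, median and highest level of 36.0, 42.1 and 45.7 CPM in aged controls, against 25.8, 28.9 and 35.2 CPM in young controls. Every aged library lay above every young one, and the log2 difference was 0.51 ± 0.09 (edgeR adjusted p = 0.000385). In aged mice given Samul-tang it had 39.0, 47.1 and 54.7 CPM, a log2 difference of 0.18 ± 0.09 from aged controls (adjusted p = 0.29). These 3′ counts do not separate spliced from unspliced Xbp1.

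Ddit3, which encodes the stress factor CHOP, had 47.6, 52.0 and 62.5 CPM in aged controls, against 32.9, 45.2 and 47.1 CPM in young controls. The ranges nearly touched without overlapping, and the log2 difference of 0.33 ± 0.10 passed the test (adjusted p = 0.0249). This call was lost in 6 of 29 alternatives, among them without aged control 1 or 2 and without young control 2 or 3, with adjusted p between 0.00866 and 0.074. With Samul-tang, Ddit3 had 48.2, 52.7 and 67.7 CPM, which overlapped the range of aged controls.

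Of the 3 sensors themselves, none was called. Ern1 had 23.3, 28.7 and 29.7 CPM in aged controls, against 27.6, 30.1 and 33.5 CPM in young controls, a log2 difference of -0.14 ± 0.10 (adjusted p = 0.452). Eif2ak3 had 11.5, 12.5 and 13.3 CPM in aged controls, against 9.41, 10.3 and 11.4 CPM in young controls. Its groups did not overlap, by a narrow gap, yet the difference of 0.27 ± 0.10 missed the threshold (adjusted p = 0.0945). Atf6 differed by -0.04 ± 0.07.

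Of the other genes linked to PERK, Atf4, Trib3 and Ppp1r15a were not called. Atf4 mRNA had 186, 192 and 225 CPM in aged controls, against 114, 192 and 213 CPM in young controls, where the lowest value was that of young control 3. The medians were almost equal and the log2 difference was 0.09 ± 0.13 (adjusted p = 0.762). The regulation of ATF4 by PERK acts on translation, which mRNA counts do not show. Trib3, a pseudokinase gene and a target of ATF4 and CHOP, had 4.22, 6.72 and 8.93 CPM in aged controls, against 2.34, 3.83 and 5.56 CPM in young controls, and its difference of 0.73 ± 0.31 was not called (adjusted p = 0.142). Ppp1r15a, whose product GADD34 helps to restore translation, differed by -0.12 ± 0.11.

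Of the 6 genes of ER-associated degradation, 3 rose with age. Herpud1, a membrane component of the degradation complex and a strongly stress-responsive gene, had 34.2, 39.9 and 51.9 CPM in aged controls, against 22.8, 25.5 and 26.8 CPM in young controls. The gap between the groups was wide, and the log2 difference of 0.69 ± 0.10 had the smallest p of all members (adjusted p = 4.53e-05). In Samul-tang ovaries Herpud1 had 31.8, 40.1 and 44.2 CPM, a range that overlapped that of aged controls.

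Edem1, a lectin that hands misfolded glycoproteins over for degradation, had 25.6, 28.1 and 31.5 CPM in aged controls, against 16.5, 23.5 and 24.8 CPM in young controls, with no overlap (log2 difference 0.36 ± 0.09, adjusted p = 0.0127). Syvn1, the ubiquitin ligase HRD1, had 33.6, 39.4 and 43.2 CPM in aged controls, against 24.9, 29.3 and 31.7 CPM in young controls. It rose by 0.40 ± 0.11 on the log2 scale (adjusted p = 0.0177), again with no overlap. Sel1l, the partner of HRD1, and the channel components Derl1 and Derl2 differed by 0.08 ± 0.07, 0.05 ± 0.09 and 0.13 ± 0.08, and none of these passed the test.

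**Figure D2:**
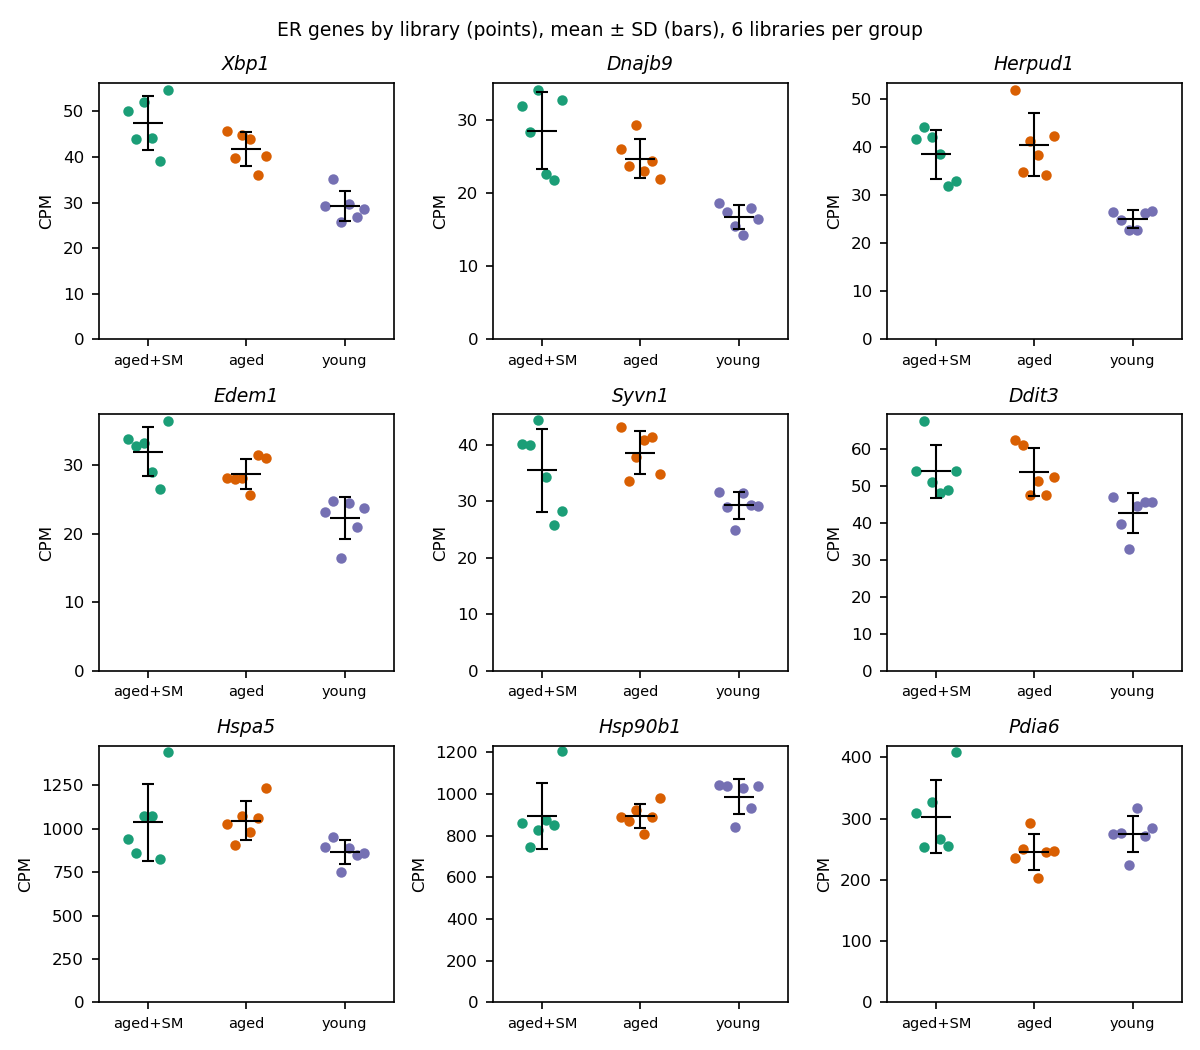
Level in CPM of 9 ER genes in each library (points, left to right aged with Samul-tang, aged control, young control), with mean and SD of 6 libraries. Xbp1, Dnajb9, Herpud1, Edem1 and Ddit3 lie above young controls in every library of both aged groups, and Syvn1 does so in aged controls but not with Samul-tang, where 2 of 6 libraries lie below the young median; Hspa5, Hsp90b1 and Pdia6 overlap between groups, and the highest point of these 3 genes is Samul-tang 6.

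The classical chaperones of the ER lumen did not pass the test with age. Hspa5 encodes BiP, the ER HSP70 that holds the sensors inactive in unstressed cells. It had 905, 1044 and 1233 CPM in aged controls, against 749, 873 and 954 CPM in young controls. The groups overlapped, and the difference of 0.28 ± 0.11 was not called (adjusted p = 0.106). It was called in 4 of 29 alternatives, and its adjusted p ran between 0.00778 and 0.23. These were the gene length trend removed, only the 12 libraries compared, Samul-tang 6 left out, and both libraries that stood apart left out. Of these, all but the gene length setting lacked Samul-tang 6.

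Hsp90b1 (GRP94), the ER HSP90, had 810, 890 and 980 CPM in aged controls, against 842, 1034 and 1041 CPM in young controls. Its difference was negative, -0.14 ± 0.09 (adjusted p = 0.333), opposite in sign to that of Hspa5. The other chaperones were close to 0: Hyou1 at 0.00 ± 0.12, the lectin chaperone Calr at -0.04 ± 0.10 and its partner Canx at 0.06 ± 0.07.

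Of the 4 ER genes grouped as DnaJ co-chaperones and their partner, Dnajb9 rose. Dnajb9 (ERdj4), a known XBP1 target that supports degradation and restrains IRE1, had 22.0, 24.1 and 29.3 CPM in aged controls, against 14.3, 17.0 and 18.7 CPM in young controls. All aged libraries lay above all young ones, with a log2 difference of 0.56 ± 0.11 (adjusted p = 0.00127). Dnajb11, Dnajc3 and Sdf2l1 differed by 0.08 to 0.10 and were not called. Among the disulfide isomerases, which form and rearrange disulfide bonds, differences ran between -0.17 for Pdia4 and 0.16 for P4hb, and no one of the 5 was called. Manf, a secreted ER stress factor, differed by 0.23 ± 0.12 (adjusted p = 0.236).

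The promoter elements shown above can be set beside these values. Of the 8 members with an ERSE, 1 rose with age, Syvn1, and their median log2 difference was 0.04, between -0.16 for Pdia6 and 0.40. Of the 2 members with an ERSE-II, Herpud1 rose and Dnajb11 did not. Of the 15 ER members with a window and no exact match to either element, 4 rose: Xbp1, Ddit3, Dnajb9 and Edem1. These counts are descriptions of few genes. The windows cover only 300 bases, and variants of the elements with a changed base were not counted.

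Cytosolic and mitochondrial members had 1 of 13 called with age (7.69%, beside 11.3% of all genes), and 2 to 3 without Samul-tang 1, 5 or 6, aged control 5 or 6, or young control 1. Dnaja1, a type I DnaJ partner of HSP70, had 285, 360 and 407 CPM in aged controls, against 243, 255 and 279 CPM in young controls. The groups did not overlap, and the log2 difference was 0.46 ± 0.09 (adjusted p = 0.000815). In Samul-tang ovaries it had 250, 322 and 362 CPM, a difference of -0.15 ± 0.09 from aged controls (adjusted p = 0.389).

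The inducible HSP70 genes showed the widest spread of all members. Hspa1a had 8.28, 20.0 and 63.3 CPM in aged controls, against 4.96, 7.26 and 8.31 CPM in young controls. Young libraries were tightly grouped, aged libraries were scattered, and the single highest was aged control 1. The log2 difference of 1.79 ± 0.56 just missed the threshold (adjusted p = 0.0519); it was called in 8 of 30 alternatives, with adjusted p between 0.00653 and 0.146. Hspa1b had 6.84, 17.1 and 61.7 CPM in aged controls, against 4.11, 7.41 and 11.6 CPM in young controls, a difference of 1.65 ± 0.59 (adjusted p = 0.0906).

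Hspa1a and Hspa1b are neighbouring genes with near-identical coding sequence, so the counting may have split reads between them. Their summed level was 15.1, 37.5 and 125 CPM in aged controls, against 11.1, 14.97 and 19.9 CPM in young controls, a log2 difference of 1.72 ± 0.56 that was also not called (adjusted p = 0.0624). With Samul-tang the sum was 11.3, 25.2 and 95.3 CPM, which spans most of the range of aged controls. Their regulator Hsf1 had 16.3, 18.6 and 21.3 CPM in aged controls, against 17.1, 20.7 and 22.4 CPM in young controls (log2 difference -0.11 ± 0.09, adjusted p = 0.499).

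None of the remaining cytosolic and mitochondrial members was called with age. Hspa8, the constitutive HSP70, had 717, 766 and 825 CPM in aged controls, against 548, 623 and 753 CPM in young controls, a difference of 0.25 ± 0.09 that was not called (adjusted p = 0.0791). Hsp90aa1, the inducible cytosolic HSP90, had 951, 1013 and 1078 CPM in aged controls, against 963, 1185 and 1287 CPM in young controls, a difference of -0.19 ± 0.12 (adjusted p = 0.361). All aged libraries lay below the young median, but the ranges overlapped. Hspd1 (HSP60), the mitochondrial chaperonin, had 846, 862 and 946 CPM in aged controls, against 677, 885 and 952 CPM in young controls, and differed by 0.05 ± 0.09. The remaining members were Hsph1 (0.14 ± 0.17), Dnajb1 (0.47 ± 0.19, adjusted p = 0.142), Hspb1 (-0.31 ± 0.16, adjusted p = 0.242), Hsp90ab1, Hspe1 and Hspa9 (between -0.05 and 0.16).

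**Figure D3:**
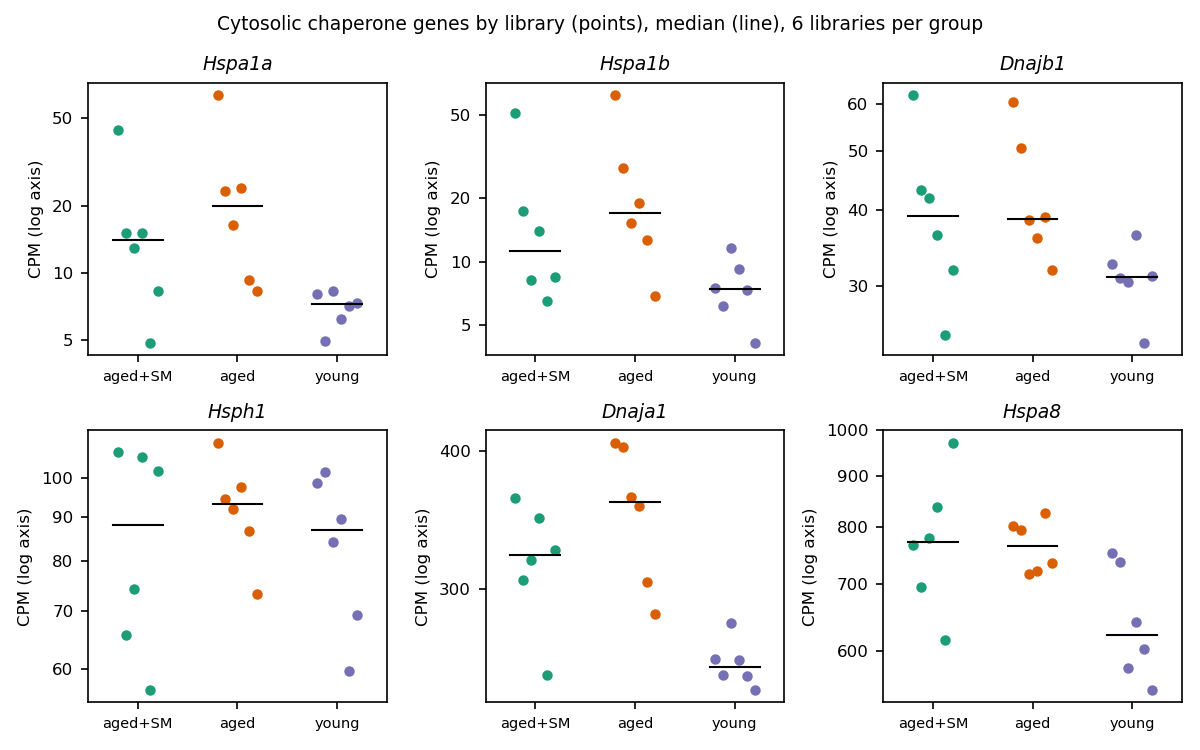
Level in CPM on a log axis of 6 cytosolic genes in each library (points, left to right aged with Samul-tang, aged control, young control), with the group median as a line. Dnaja1 separates aged controls from young controls; Hspa1a and Hspa1b each have 1 library far above the rest in the Samul-tang and aged control groups, while young controls lie together at the low end.

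Other genes of the same pathways were counted from lists by function, beside the 11.3% of all genes called; a share near it is not a result about a list. Of 22 further genes of ER-associated degradation, 5 rose with age and 1 fell (27.3%). Among those that rose were Edem3 (0.36 ± 0.08, adjusted p = 0.00293) and Edem2 (0.38 ± 0.09, adjusted p = 0.00761), relatives of Edem1, and Selenos, a selenoprotein of the degradation complex (0.36 ± 0.09, adjusted p = 0.0062). Derl3, a relative of Derl1 and Derl2, fell: it had 3.01, 3.81 and 5.71 CPM in aged controls, against 10.5, 11.9 and 16.6 CPM in young controls, a log2 difference of -1.70 ± 0.19 (adjusted p = 2.52e-06). The direction of Derl3 was thus opposite to that of Herpud1, Edem1 and Syvn1.

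Of 27 other ER folding genes, 2 rose and 1 fell (11.1%, near the background), the gene that fell being the collagen chaperone Serpinh1 (-0.42 ± 0.08, adjusted p = 0.00149). Of 28 translocon and glycosylation genes, 1 rose (3.57%), Sec11c of the signal peptidase (0.29 ± 0.08, adjusted p = 0.0166). Of 25 further ER stress signalling genes, 8% were called: Wfs1 rose (0.48 ± 0.16, adjusted p = 0.0457), a call that held in 16 of 29 alternatives and was lost without 10 different single libraries in turn (adjusted p up to 0.12), and Vldlr fell (-0.41 ± 0.09, adjusted p = 0.00453). Of 39 tested genes among other cytosolic heat shock genes, 4 rose and 1 fell (12.8%). Dnaja4 rose most (0.51 ± 0.11, adjusted p = 0.00348), and Cryab, a small heat shock protein gene, fell to 6.32, 7.98 and 9.07 CPM in aged controls, against 11.6, 14.9 and 20.1 CPM in young controls (-0.93 ± 0.14, adjusted p = 8.31e-05). None of 14 chaperonin and prefoldin genes and none of 13 other mitochondrial chaperone and protease genes was called.

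The cell makeup of the ovaries moved with age as well, and its part in these results was not tested. Whole-ovary RNA cannot tell fewer cells of a type from less RNA per cell. All 9 oocyte markers tested fell, their summed level being 29.5 to 48.8 CPM in aged controls, against 96.2 to 142 CPM in young controls. Granulosa markers fell in 6 of 10 cases (623 to 971 CPM in aged controls, against 891 to 1443 CPM in young controls), and smooth muscle markers in 5 of 7 (794 to 898 CPM, against 896 to 1543 CPM). Theca and interstitial markers fell in 5 of 8 cases, their sum overlapping (1637 to 2182 CPM in aged controls, against 1920 to 2315 CPM in young controls), and stromal fibroblast markers in 3 of 8 (1754 to 2239 CPM in aged controls, against 2104 to 2815 CPM in young controls). Surface epithelium markers rose in 1 of 8 cases and fell in 2. Macrophage markers rose in 3 of 10 cases, their sum overlapping (381 to 545 CPM in aged controls, against 234 to 511 CPM in young controls). Endothelial markers rose in 3 of 8 cases, and their sum did not overlap (428.5 to 464.5 CPM, against 346.2 to 401.3 CPM). Luteal markers rose in 2 of 10 cases, and their sum did not overlap between groups (15720 to 18440 CPM in aged controls, against 10690 to 14230 CPM in young controls). Plasma cell markers, which mark cells rich in ER, rose in 3 of 6 cases, while their sum overlapped (93.1 to 133 CPM, against 54.3 to 141 CPM). In young control 3 the sums of both luteal and plasma cell markers were the lowest of all libraries. Other sums of this library stood apart from the rest of its group too: smooth muscle 896 CPM (others 1296 to 1543), stromal fibroblast 2104 (2571 to 2815) and macrophage 511 (234 to 324). Its granulosa sum, 1443 CPM, was the highest of all libraries. The part of these markers in its values was not tested.

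Samul-tang against aged controls was the second comparison, and it asks whether the decoction altered these genes in ovaries of the same age. It called 1.04% of all genes tested, 93 higher (0.548%) and 83 lower (0.489%), a split that became 25 higher and 212 lower with the gene length trend removed. None of the 29 ER members and none of the 13 others passed the edgeR test, and none did with DESeq2. No member lay above or below aged controls without overlap, as did 0.849% and 0.678% of all genes. At an unadjusted p under 0.05 there were 6 ER members and 0 others, beside 2861 of the 16959 genes tested. Over all 42 members that share was not above the share of all genes. With limma on TPM values 1 ER member, Canx, was lower by 0.43 (adjusted p = 0.0484), where its adjusted p ran up to 1 over the alternatives.

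The intervals say how large a change could have been missed. The 95% confidence interval of the log2 difference lay within ±0.5 for 24 of 29 ER members and 11 of 13 others. Hspa5 had 823, 1007 and 1441 CPM with Samul-tang, against 905, 1044 and 1233 CPM in aged controls, with a difference of -0.02 and an interval of -0.24 to 0.21. Hsp90b1 had 745, 855 and 1206 CPM with Samul-tang, against 810, 890 and 980 CPM in aged controls (difference -0.00, interval -0.18 to 0.18). For Herpud1 the interval was -0.27 to 0.13 and for Edem1 -0.04 to 0.34. For Hspa1a it was far wider, -1.62 to 0.59, and 1 library of each aged group lay far above the rest.

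The 6 ER members under the unadjusted threshold differed in both signs. Pdia6 had 253, 288 and 408 CPM with Samul-tang, against 203, 246 and 293 CPM in aged controls, a log2 difference of 0.30 ± 0.11 (adjusted p = 0.149). Pdia3 had 276, 308 and 356 CPM with Samul-tang, against 296, 373 and 406 CPM in aged controls, a difference of -0.22 ± 0.08 (adjusted p = 0.141). Pdia4 differed by -0.29 ± 0.14 (adjusted p = 0.287). All 6 Samul-tang libraries lay above the aged median for Pdia6 and all 6 below it for Pdia3. None of these genes passed the test, so their signs are not a result about the enzyme family. Derl1 (0.24 ± 0.09, adjusted p = 0.139), Manf (0.27 ± 0.12, adjusted p = 0.233) and Xbp1 made up the rest.

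Of 168 other pathway genes tested, 2 were called with Samul-tang (1.19%, near the 1.04% of all genes), both higher. Ngly1, which strips glycans from proteins bound for degradation, had 16.7, 18.6 and 20.7 CPM with Samul-tang, against 12.6, 13.8 and 14.1 CPM in aged controls. Its groups did not overlap, and the difference was 0.46 ± 0.09 (adjusted p = 0.0173). Ssr3, a subunit of the translocon-associated complex, had 168, 220 and 242 CPM with Samul-tang, against 158, 163 and 175 CPM in aged controls (0.34 ± 0.08, adjusted p = 0.0332). Ngly1 was called in all 29 alternatives and Ssr3 in 15. No cell type marker list had a member called in this comparison.

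Samul-tang ovaries were also set against young controls. This comparison shares its Samul-tang libraries with the one above and its young libraries with the age comparison, so the values are only set side by side. It called 22.4% of all genes tested (11.5% higher, 10.9% lower). Of the ER members 9 were higher and 2 lower, and of the others 3 were higher. Without young control 3 and Samul-tang 6, 8 ER members were higher and 4 lower, Hsp90b1 and Calr joining Pdia3 and Pdia4, while of the others Dnaja1 was higher and Hsp90ab1 lower. The calls of P4hb, Derl1, Derl2, Hspa8 and Hspa9 were lost there. Without Samul-tang 6 alone, 10 ER members were higher and 4 lower. Without overlap, 5 members lay above young controls and 0 below, as did 4.85% and 4.65% of all genes. Dnajb9 was higher by 0.77 ± 0.11 (adjusted p = 2.67e-05; 0.56 in aged controls over young controls), Xbp1 by 0.70 ± 0.09 (8.83e-06; 0.51), Herpud1 by 0.62 ± 0.10 (0.000106; 0.69) and Edem1 by 0.52 ± 0.09 (0.000366; 0.36). Ddit3 was higher by 0.34 ± 0.10 (adjusted p = 0.0124; 0.33). Syvn1, called with age at 0.40, differed here by 0.28 ± 0.11 and was not called (adjusted p = 0.0691), and Dnaja1 was higher by 0.31 (0.46 with age).

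Some members were called only against young controls, which does not show that the aged groups differ. Manf had 154, 196 and 290 CPM with Samul-tang, against 122, 148 and 157 CPM in young controls (0.50 ± 0.12, adjusted p = 0.00407). The disulfide isomerase gene P4hb had 242, 266 and 293 CPM, against 162, 236 and 243 CPM in young controls (0.25 ± 0.08, adjusted p = 0.024). Derl1 had 104, 113 and 142 CPM, against 83.4, 98.1 and 109 CPM in young controls (0.29 ± 0.09, adjusted p = 0.0172). The ranges of these 3 genes overlapped, narrowly for Manf and P4hb.

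Both lower members were disulfide isomerases. Pdia4 had 44.8, 56.8 and 85.1 CPM with Samul-tang, against 71.2, 81.6 and 96.9 CPM in young controls, a difference of -0.46 ± 0.13 (adjusted p = 0.0195). Pdia3 differed by -0.22 ± 0.08 (adjusted p = 0.0371). The call of Pdia3 was lost with the gene length trend removed. It was also lost without any 1 of young controls 2, 4 and 6 or of Samul-tang 1, 2, 3 and 5. That of Pdia4 was lost only without the low-count filter. Derl2 was higher by 0.23 ± 0.08 (adjusted p = 0.0462), a call that held in 7 of 29 alternatives. Of the cytosolic and mitochondrial members, Dnaja1 (0.31 ± 0.09, adjusted p = 0.0116), Hspa9, a mitochondrial HSP70 (0.24 ± 0.07, adjusted p = 0.0115), and Hspa8 (0.27 ± 0.09, adjusted p = 0.0338) were higher. These calls held in 27, 26 and 15 of 29 alternatives for Dnaja1, Hspa9 and Hspa8. Hspa8 lost its call without any 1 of young controls 3, 4, 5 and 6 or of Samul-tang 1, 3, 4 and 6, with adjusted p up to 0.161.

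The same lists of other pathway genes were counted here, beside the 22.4% of all genes called. Of 28 translocon and glycosylation genes, 16 were higher and 0 lower (57.1%), led by the signal peptidase genes Spcs2 (0.38 ± 0.07), Sec11c (0.37 ± 0.08) and Spcs1 (0.37 ± 0.08) and the translocon gene Tram1 (0.37 ± 0.08). Of 22 other degradation genes 6 were higher and 1 lower (31.8%), among them Selenok (0.46 ± 0.07), Ngly1 (0.43 ± 0.09), Edem3 (0.33 ± 0.08) and, lower, Derl3 (-1.74 ± 0.19). Of 25 other stress signalling genes 6 were higher and 1 lower (28%), among them Chac1, a target of ATF4 (1.11 ± 0.33). Of 39 other cytosolic genes 4 were higher, among them Hspb8 (0.87 ± 0.19), and 4 lower, among them Cryab (-0.80 ± 0.14), which is 20.5% and under the background. Of 27 other folding genes 4 were higher and 1 lower (18.5%, under the background), of 14 chaperonin and prefoldin genes 5 were higher and 1 lower (42.9%), and of 13 other mitochondrial genes 4 were higher (30.8%).

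Single libraries stood at the edge of their groups for many of these genes. Young control 3 held the lowest value of its group in 22 of 29 ER members (75.9%), where it did so in 27.9% of all genes, and Samul-tang 6 held the highest in 17 of 29 (58.6%, against 22.3% of all genes). Samul-tang 5 was lowest in 21 of all 42 members (50%, against 13.4% of all genes). Cell markers of Samul-tang 6 stood apart too: its endothelial sum was 258 CPM (416 to 458 in the other Samul-tang libraries), macrophage 751 (395 to 490), theca and interstitial 3144 (1789 to 2454) and surface epithelium 106 (61.3 to 71.7). Their part in its values was not tested. The coefficient of variation was larger with Samul-tang than in aged controls for 36 of 42 members (85.7%), beside 59.3% of all genes. Without Samul-tang 6 it was larger for 30 of 42 (71.4%, beside 52.6% of all genes). RNA quality and handling of single libraries were not tested.

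**Figure D4:**
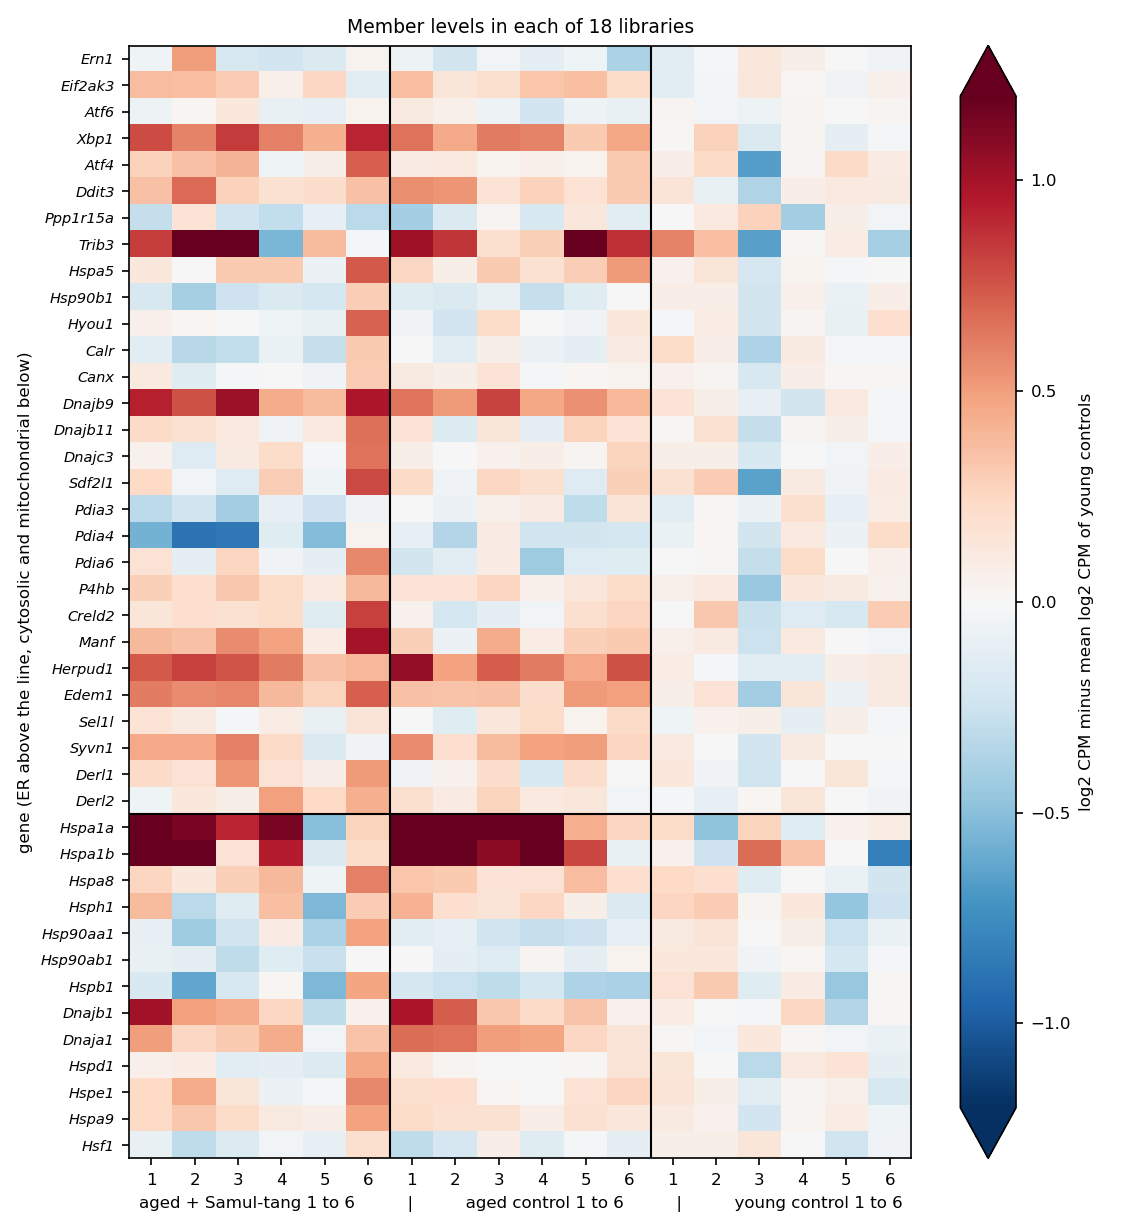
Log2 CPM of the 42 members in each of the 18 libraries (columns, aged with Samul-tang, aged control, young control) relative to the mean log2 CPM of young controls, with ER genes above the line and cytosolic and mitochondrial genes below. Samul-tang 6 is red across most rows, young control 3 is blue across most ER rows, and Xbp1, Dnajb9, Herpud1 and Edem1 are red in all 12 aged libraries.

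Co-variation within groups was examined for 12 pairs with known links, on log2 CPM with group means removed (18 libraries, two-sided permutation tests of 100000 draws within groups, Benjamini-Hochberg adjustment over the 12). Of the ER chaperones, Hspa5 with Hsp90b1 had a Pearson r of 0.85 (permutation p = 0.00057, adjusted p = 0.00228) and a Spearman rho of 0.73 (permutation p = 0.00041, adjusted p = 0.00164). Without the 2 libraries farthest from the median in Hspa5, Samul-tang 5 and 6, the r was 0.78. Within groups, with all libraries, it was 0.86, 0.80 and 0.89 for Samul-tang, aged controls and young controls. Samul-tang 6 was the highest of its group in both genes (1441 and 1206 CPM). Young control 3 was the lowest of its group in both (749 and 842 CPM). No r within a group was computed without these libraries, for this pair or any other. Hspa5 with Sdf2l1, a partner of BiP's DnaJ proteins, had an r of 0.73 (permutation p = 0.0023, adjusted p = 0.00552), rho of 0.72 (permutation p = 0.0018, adjusted p = 0.0054) and 0.57 without 2 libraries.

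Hspa5 with Herpud1 had an r of -0.005 (permutation p = 0.988, adjusted p = 0.988) and a rho of 0.05 (permutation p = 0.858, adjusted p = 0.858). Hspa5 with Xbp1 had 0.59 (permutation p = 0.0206, adjusted p = 0.0354) and rho of 0.56 (permutation p = 0.035, adjusted p = 0.0526). Without Samul-tang 5 and 6 its r was 0.35, and within groups it was 0.79 with Samul-tang, -0.10 in aged controls and 0.88 in young controls. Of the other pairs, Hspa5 with Pdia4 had an r of 0.62 (permutation p = 0.0408, adjusted p = 0.0545) and a rho of 0.52 (permutation p = 0.0715, adjusted p = 0.0954). Atf4 with Ddit3 had an r of 0.56 (permutation p = 0.0362, adjusted p = 0.0543) and a rho of 0.50 (permutation p = 0.035, adjusted p = 0.0526). Atf4 with Trib3 had an r of 0.40 (permutation p = 0.147, adjusted p = 0.176) and a rho of 0.35 (permutation p = 0.187, adjusted p = 0.204). Hspa5 with Hspa1a, 1 gene of each compartment, had an r of -0.26 (permutation p = 0.407, adjusted p = 0.444) and a rho of -0.44 (permutation p = 0.101, adjusted p = 0.121). None of these 4 passed after adjustment.

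In the cytosol, Hspa1a with Hspa1b had an r of 0.90 (permutation p = 7e-05, adjusted p = 0.00048) and a rho of 0.82 (permutation p = 0.00021, adjusted p = 0.00126), and their near-identical sequences may share reads. Without Samul-tang 1 and aged control 1 the r was 0.76. Hspa1a with Dnajb1, a DnaJ gene also driven by HSF1, had 0.83 (permutation p = 0.00081, adjusted p = 0.00243), rho of 0.66 (permutation p = 0.0117, adjusted p = 0.0234) and 0.66 without the 2 farthest libraries. Within young controls that r was -0.15, beside 0.97 with Samul-tang and 0.84 in aged controls; a difference between groups was not tested. Hsph1 with Hsp90aa1 had 0.72 (permutation p = 0.00483, adjusted p = 0.00966) and a rho of 0.74 (permutation p = 0.00493, adjusted p = 0.0118), 0.62 without 2 libraries, with -0.19 within aged controls. Hspd1 with Hspe1, which share the promoter shown above, had 0.84 (permutation p = 8e-05, adjusted p = 0.00048), rho of 0.84 (permutation p = 1e-04, adjusted p = 0.0012) and between 0.77 and 0.90 within groups.

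**Figure D5:**
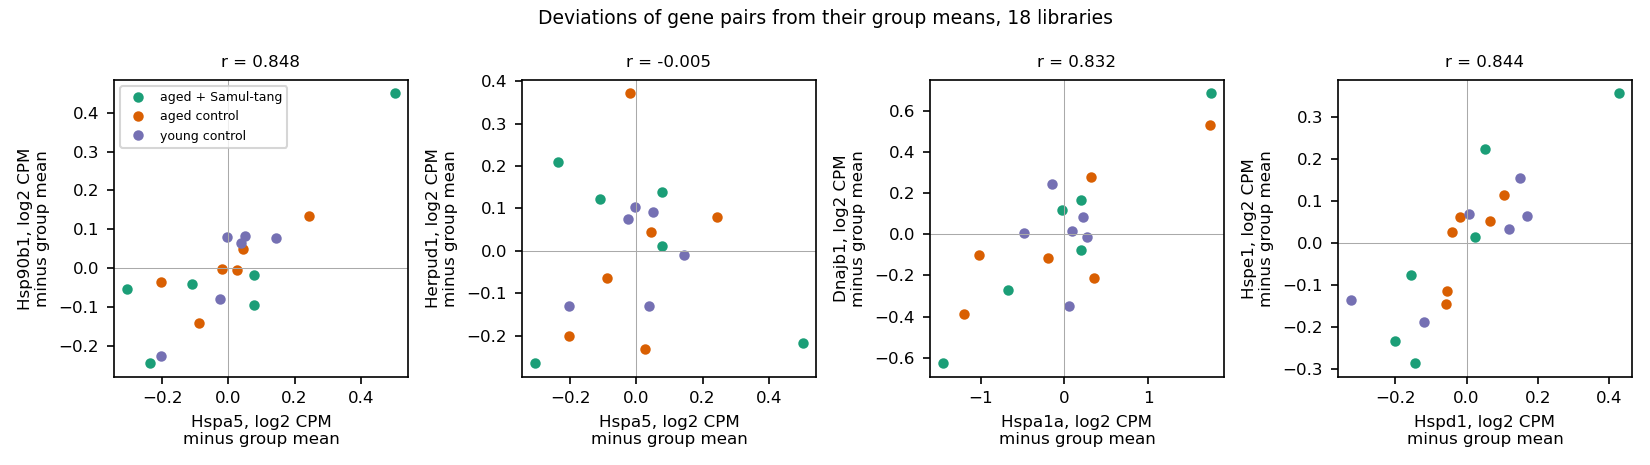
Log2 CPM minus the group mean for 4 pairs of genes, 1 point per library, coloured by group (aged with Samul-tang, aged control, young control). Hspa5 and Hsp90b1 (r of 0.85), Hspa1a and Dnajb1 (0.83) and Hspd1 and Hspe1 (0.84) rise together, and Hspa5 and Herpud1 (-0.005) show no common trend.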

How the data were processed

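Libraries of 18 ovaries came from a 3′ end kit (QuantSeq), per the labels' protocols. Versions listed by the submitters' processing notes are RSEM 1.3.3, STAR 2.7.9a and FastQC 1.9, with GRCm39 as genome. Each library's file holds expected counts and TPM values deposited by the authors for 55416 genes. TPM divides by gene length, which 3′ reads do not need, so the deposited TPM served only as an alternative. No source used here gives the annotation or strand setting, so overlapping and near-identical genes may share reads. Symbols were matched by Ensembl identifier for 52083 genes. Ddit3 is ENSMUSG00000025408; a further identifier with that symbol was not used.

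Expected counts were rounded, filtered with the edgeR rule (at least 10 counts at median depth, 15 in all; 16959 genes), scaled by TMM (factors 0.94 to 1.07) then compared by quasi-likelihood F-test (edgeR 4.0.16, R 4.3.3), 18 libraries in 1 fit with 3 contrasts. Alternatives used DESeq2 1.42.0, limma 3.58.1 on log2(TPM + 1) or log2(TPM + 0.1) for genes with a mean TPM of at least 1, other size factors and filters, 12 libraries, counts thinned to the lowest total, a gene length trend removed, a replicate block and each library left out. The scripts were tested on simulated data. Chi-square per degree of freedom was at least 4.04 in all 153 pairs of libraries, so none was the same library as another. That check does not show that the libraries of a group came from separate mice. The edgeR p-values test group differences against a spread between libraries estimated over all 3 groups. Those for age thus also carry the spread of the Samul-tang libraries. Intervals come from the same fit, and p-values of gene pairs come from permutations. Figures used matplotlib 3.10.9.

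Members and lists were chosen with earlier results of these data known. Named in full were all members called in any comparison and a panel (Hspa5, Hsp90b1, Xbp1, Atf4, Ddit3, Ern1, Hspa1a, Hspa1b, Hspa8, Hsp90aa1, Hspd1, Hsf1); other pathway genes were named from the 4 smallest p-values per list. Others are given by values or ranges. Protein sequences were not used here.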

Additional observations from a re-analysis of the deposited data

Results flagged for a closer look

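Among 126 groups of 6 libraries (42 members in 3 groups), 12 held a library whose gap to the nearest other exceeded Dixon's critical share of the group's range; chance flags about 1 in 20 groups. Samul-tang 6 was high for Hsp90b1 at 1206 CPM (others 746 to 873), Hyou1 at 135 CPM (others 77.9 to 86.5) and the disulfide isomerase relative Creld2 at 33.9 CPM (others 17.4 to 22.3). Samul-tang 2 was high for the sensor Ern1 at 43.1 CPM (others 25.9 to 31.3) and for Ddit3 at 67.7 CPM (others 48.2 to 54.2). Aged control 6 was high for Atf4 at 225 CPM (others 186 to 197) and the co-chaperone Dnajc3 at 182 CPM (others 150 to 160).

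Young control 3 was low for 5 genes. They were Atf4 at 114 CPM (others 186 to 213), Canx at 299 CPM (others 346 to 362), Sdf2l1 at 24.6 CPM (others 37.5 to 47.5), P4hb at 162 CPM (others 231 to 243) and Syvn1 at 24.9 CPM (the next lowest 29 and the highest 31.7). The cause of these values was not tested.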

How the results depend on the processing

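Over 29 alternatives, 3 of the 7 members called with age were called in every one (Xbp1, Dnajb9, Herpud1), all 7 kept their sign, and 24 members were never called. With limma on TPM, at either pseudocount, the age comparison called 3 ER members and 0 cytosolic or mitochondrial members; Edem1, Syvn1, Ddit3 and Dnaja1 were lost. The cytosolic and mitochondrial count with age, 1, was 3 with DESeq2, 5 with only the 12 libraries compared (Hsp90aa1 and Hspb1 lower), 4 with the replicate block and 4 with the gene length trend removed. Leaving out 1 library in turn gave 1 to 3: 2 without aged control 5 or 6, young control 1, or Samul-tang 5 or 6, and 3 without Samul-tang 1; Hspa1a, Hspa1b and Hspa8 were the members gained. For Samul-tang against aged controls limma called 1 ER member, and every other alternative 0. For Samul-tang against young controls limma called 0 cytosolic or mitochondrial members, and the difference of Canx turned to -0.42 at both pseudocounts and that of Ufd1 to -0.0278 and -0.0282; leaving out 1 library in turn gave 8 to 14 ER members. The cause was not tested. Replicate numbers did not pair the libraries (same-number correlations of -0.175 to 0.109); with the replicate block the ER counts were 6, 0 and 10 for age, Samul-tang over aged controls and Samul-tang over young controls. Without both libraries that stood apart, chosen after seeing the data, as was the sum of Hspa1a and Hspa1b, the counts with age were 9 ER and 1 other, with Samul-tang over aged controls 0 and 0, and over young controls 12 and 2. Trib3, with 22 counts at the lowest, is limited most by depth.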
